A study of Mus musculus with 6 samples.

Results

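A set of 31 genes tied to microglial identity and to lysosomes was followed in the anterior cingulate cortex (ACC) of adolescent mice. The genes were taken from a list of names and matched by symbol, and all 31 were among the 14250 rows of the count table. They were divided by known role into 18 genes of the homeostatic microglial state, 9 genes of the lysosome and 4 genes linked to activation. The 9 include Cst3, which codes for a secreted inhibitor of cysteine proteases. The libraries came from C57BL/6 mice injected intraperitoneally on postnatal day 14 with 50 µg per kg of LPS, an endotoxin from the outer membrane of bacteria, or with pyrogen-free saline. All mice were killed on postnatal day 45, after anaesthesia with isoflurane and pentobarbital and perfusion with cold buffer. The ACC was dissected by hand from slices, and each of the 6 libraries (3 LPS, 3 saline) held polyadenylated RNA of 1 mouse. The series asks whether early inflammation leaves a lasting mark on microglia, which take up dendritic spines, and on depressive behaviour in adolescence.

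Microglia are the resident macrophages of the brain. In the resting state they carry receptors that sense nucleotides and lipids released by neighbouring cells, and a pair of transcription factors, SALL1 and IRF8, helps to keep that state. When they take up debris, vesicles fuse with lysosomes, where cathepsins and other proteases digest the cargo. In mouse models of injury and degeneration, microglia commonly lose receptors such as P2RY12 and gain Apoe, Cd9, Cd63 and lysosomal transcripts. Because the RNA came from whole tissue, fewer cells of a type and less RNA per cell cannot be told apart here.

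No member of the set differed between LPS and saline mice beyond the threshold. With edgeR's quasi-likelihood test on the counts, adjusted over all rows by the Benjamini-Hochberg method, 0 of 31 had an adjusted p under 0.05, and the smallest adjusted p was 0.588. Over all rows the same test called 0.288%. DESeq2, which called 0.982% of rows, and limma-voom, which called 0.239%, also called 0 of 31. At an unadjusted p under 0.05 there were 3 members, or 9.68% of the set, against 7.17% of all rows. DESeq2 and limma-voom gave the same 3 genes, Entpd1, Aif1 and Cst3. The number ran from 1 without LPS 2, LPS 3, Saline 1 or Saline 2 to 6 without LPS 1. In 4 members the LPS and saline samples did not overlap, or 12.9% of the set, against 13.7% of all rows. Of these 4, the LPS samples were higher in 2 and lower in 2, where either direction held 6.84% of all rows. These shares lie near those of all rows.

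The size of change that the data leave room for was small for most members. Log2 changes (LPS over saline) ran from -0.47 for Aif1 to 0.23 for Entpd1, with a median of 0.06 beside 0.00 over all rows. The 95% interval of the change lay inside 1.5-fold in either direction for 29 of 31 members, the exceptions being P2ry12 and Aif1. These intervals are for single genes and are not adjusted for the number of genes.

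**Figure D1:**
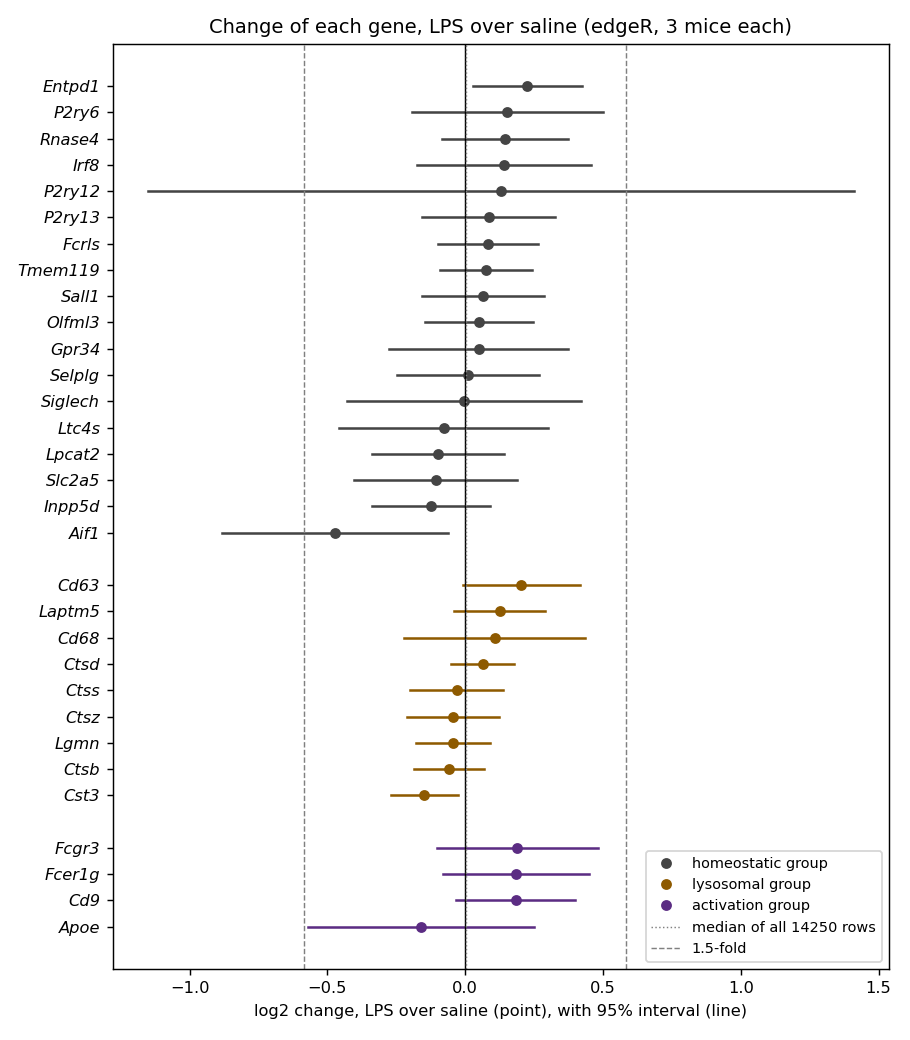
Log2 change of each gene, LPS over saline, from edgeR with 3 mice per group (x axis), with points for the estimate and lines for the 95% interval; genes run down the page by group. The intervals of 29 of the 31 genes lie between the dashed lines at 1.5-fold, and those of P2ry12 and Aif1 pass them.

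Levels were compared between genes in the authors' FPKM, which divides fragments by transcript length and library size. Apoe, the lipid carrier that astrocytes make in quantity, was highest at 868 ± 89.5 FPKM in LPS and 967 ± 203 FPKM in saline samples (SD, n = 3 each). Cst3, the secreted inhibitor of cysteine proteases, followed at 593 ± 9.51 FPKM in LPS and 669 ± 42.4 FPKM in saline samples. The proteases Ctsd, Ctsb, Lgmn and Ctss came next, from 132 ± 4.69 FPKM for Ctsd to 37.0 ± 2.90 FPKM for Ctss in LPS samples and from 127 ± 5.57 to 38.1 ± 1.62 FPKM in saline samples. Each of these 6 was above the next in every one of the 6 libraries. The homeostatic genes were lower: P2ry12 led them at 28.4 ± 7.47 FPKM in LPS and 26.3 ± 8.68 FPKM in saline samples, and Irf8 closed the list at 1.78 ± 0.143 and 1.61 ± 0.144 FPKM. Below Ctss, neighbours in the order overlapped between libraries in every case but that of Fcer1g and Tmem119.

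**Figure D2:**
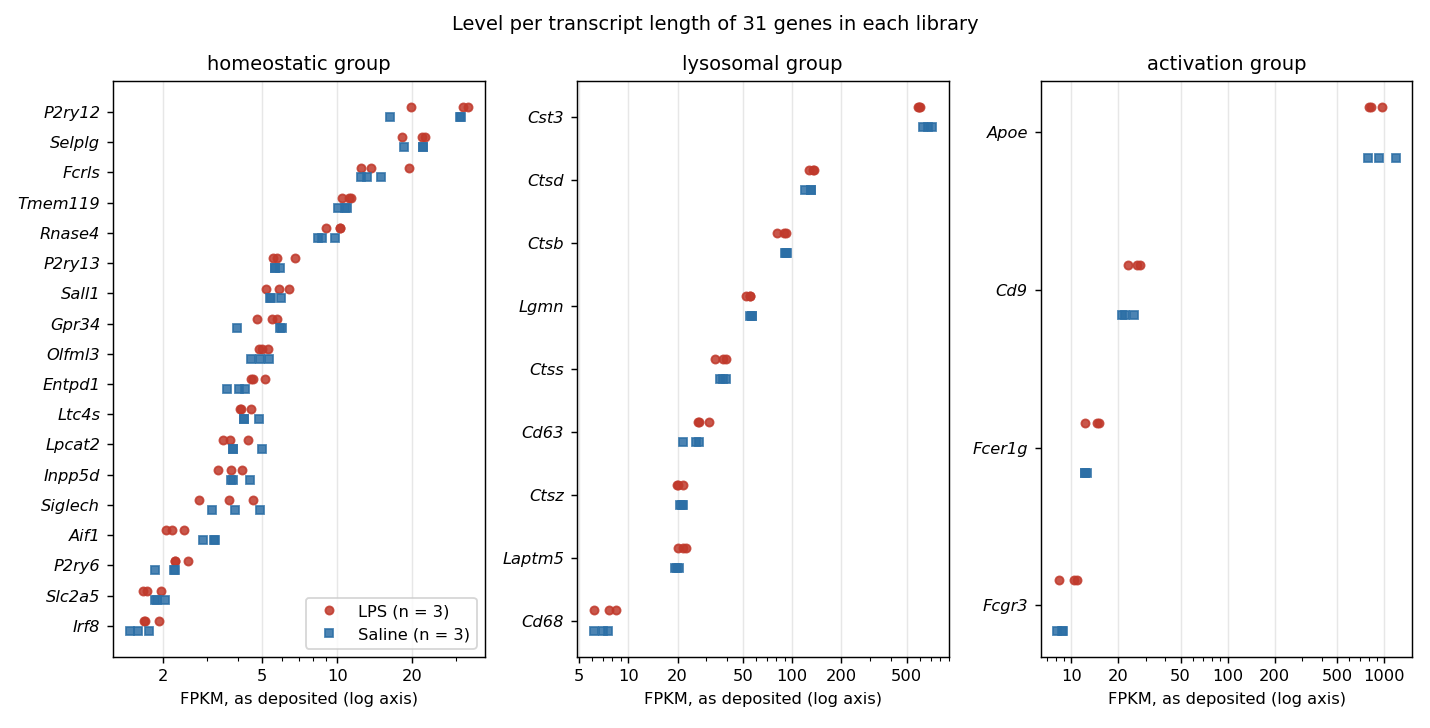
FPKM of each gene on a log axis (x axis), in LPS (circles) and saline (squares) samples, 1 point per library, with genes ordered by their mean within each group. Most genes show overlapping points. In Aif1, Cst3 and, narrowly, Lgmn every LPS point lies below every saline point, and in Entpd1 every LPS point lies above. P2ry12 has 1 low library in each group.

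The microglial marker check was met in every library. All 10 microglial markers on the list, which include P2ry12, Tmem119, Sall1, Siglech and Fcrls, were detected in all 6 libraries, with summed levels of 433 to 468 CPM (counts scaled to library size with TMM factors) in LPS and 411 to 439 CPM in saline samples. Library totals were 36168687 to 41270737 counts in LPS and 37416194 to 39804999 counts in saline samples. The least counted member was Aif1, with at least 74 counts per library, and no row fell to the low-count filter. No label says that the library kit preserves strand, so a member and an antisense neighbour may share reads.

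Bases before the start sites of the members were read from RefSeq (GRCm38.p6), for motifs of the factors named with these genes. Of the 31 members 26 had an entry, with 35 start sites, and 250 bases before each were searched on both strands. The letters CACGTG, the core of the element that TFEB, a regulator of lysosomal genes, binds, were found before 2 of 9 start sites of lysosomal members and 2 of 19 of homeostatic members, where 6.02% of all 32851 start sites held them. GAGGAAGT, a form of the PU box that PU.1 binds, was found before 1 of 35, where 2.44% of all held it. The ETS-IRF composite element, a GGAA core followed after a short gap by GAAA, which PU.1 and IRF8 bind together, was found before 1 of 35 (that of Lpcat2), where 2.30% of all held it. The motifs did not overlap each other in the stretches shown. A match is a description of the letters only. CACGTG also stood before P2ry12 and Siglech. Stretches are shown for a match in a lysosomal protease (Ctsd, Lgmn) or an identity gene (Inpp5d), and for the member with the widest gap between LPS and saline samples (Aif1), where none of the motifs was found. Each reads 5′ to 3′ on the gene's strand, and capitals mark the motif.
Ctsd, chr7:142387911-142387940, minus strand: ccctcgcccgcgtctCACGTGacccgttga
Lgmn, chr12:102439093-102439212, minus strand: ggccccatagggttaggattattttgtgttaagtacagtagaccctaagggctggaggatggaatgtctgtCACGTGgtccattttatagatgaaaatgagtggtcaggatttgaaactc
Inpp5d, chr1:87620192-87620311, plus strand: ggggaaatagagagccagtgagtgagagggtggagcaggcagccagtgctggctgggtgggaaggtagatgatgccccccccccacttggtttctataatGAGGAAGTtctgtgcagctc
Aif1, chr17:35176073-35176172, minus strand: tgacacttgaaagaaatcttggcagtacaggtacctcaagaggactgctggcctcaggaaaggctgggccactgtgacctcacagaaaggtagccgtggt
The motif of Ctsd begins 98 bases before its RefSeq start site, with another at 245 bases. That of Lgmn begins 49 bases before a second start site, and that of Inpp5d 20 bases before its start. In the GENCODE M21 annotation Ctsd reaches to 142388038 and Lgmn to 102439813. The stretches shown for these genes thus lie inside the annotated genes. None of the genes shown was called between LPS and saline samples.

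LPS and saline samples overlapped for Tmem119 and for the nucleotide and lipid receptors of the homeostatic state, of which P2ry12 is described apart because of its spread. Tmem119 codes for a membrane protein used as a microglial marker and lies on chromosome 5 at 113793729 to 113800516 (GRCm38). It had 25.2, 27.9 and 27.6 CPM in LPS and 24.9, 25.9 and 25.8 CPM in saline samples. LPS 2 and LPS 3 lay above the saline samples and LPS 1 lay among them, and the log2 change was 0.08 (SE 0.0743, 95% interval -0.09 to 0.24). P2ry13, an ADP receptor, had 15.57, 19.28 and 15.28 CPM in LPS and 15.95, 15.31 and 15.98 CPM in saline samples. Only LPS 2 stood above the rest. P2ry6, the receptor for UDP that promotes uptake of debris, had a log2 change of 0.15 (SE 0.154) and Gpr34, a receptor for lysophosphatidylserine, of 0.05 (SE 0.145). Gpr34 was lowest in Saline 1, at 8.51 CPM, while the other libraries held 10.5 to 12.2 CPM.

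Other surface genes were no further apart. Siglech, a gene of the Siglec lectin family, had 4.77, 6.90 and 7.45 CPM in LPS and 7.49, 5.52 and 6.15 CPM in saline samples, and the groups overlapped throughout. Its log2 change was -0.00 (SE 0.189). Selplg, which codes for a selectin ligand, had a log2 change of 0.01 (SE 0.114) and Slc2a5, a fructose transporter gene, of -0.11 (SE 0.132).

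Entpd1 had the largest positive change of the 31. It codes for CD39, the enzyme that breaks down extracellular ATP and ADP, and lies on chromosome 19 at 40612366 to 40741602. Its levels were 20.8, 20.8 and 20.6 CPM in LPS and 17.3, 19.4 and 16.4 CPM in saline samples. Every LPS sample was above every saline sample, and the LPS samples differed by a factor of 1.01. The log2 change was 0.23 (SE 0.0879, 95% interval 0.03 to 0.42), with an unadjusted p of 0.0294 and an edgeR adjusted p of 0.633. Leaving out single libraries gave log2 changes of 0.17 to 0.30, with edgeR unadjusted p from 0.0115 to 0.0996.

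The transcription factor genes differed little. Sall1, a zinc finger factor needed for microglial identity, had a log2 change of 0.07 (SE 0.0988), with 29.3, 37.9 and 33.7 CPM in LPS and 32.3, 30.5 and 33.6 CPM in saline samples. Irf8, a partner of the lineage factor PU.1, had a log2 change of 0.14 (SE 0.140). LPS 1 held the lowest Sall1 level and LPS 2 the highest, so the spread within the LPS group covered the saline samples.

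For 6 other genes of the homeostatic group, which code for a receptor, secreted proteins and enzymes, LPS and saline samples overlapped. Log2 changes were 0.08 for Fcrls (SE 0.0809), a receptor of the Fc receptor-like family, and 0.05 for Olfml3 (SE 0.0870), a secreted matrix protein gene. They were 0.15 for Rnase4 (SE 0.102), a secreted ribonuclease gene whose exons overlap those of Ang on the same strand, and -0.10 for Lpcat2 (SE 0.107), a lysophospholipid acyltransferase gene. Ltc4s, leukotriene C4 synthase, was at -0.08 (SE 0.168) and Inpp5d, the lipid phosphatase SHIP1, at -0.12 (SE 0.0951). For Ang itself it was -0.60 (SE 0.312), with an edgeR adjusted p of 0.748. Antisense transcripts that are no rows of the table overlap 26.4% of the exon length of Ltc4s (Gm26542) and 8.5% of that of Lpcat2 (Gm45472).

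Aif1 showed the widest gap between the groups. It codes for IBA1, the calcium-binding protein stained most often to find microglia, and lies on chromosome 17 at 35170991 to 35176068. Its levels were 2.17, 1.95 and 2.03 CPM in LPS and 2.78, 2.90 and 2.87 CPM in saline samples, from 74 to 116 counts per library. Its promoter stretch is the last of those printed above. Every LPS sample was below every saline sample, and each group was tight, with standard deviations of 0.110 CPM in LPS and 0.0627 CPM in saline samples. The log2 change was -0.47 (SE 0.182, 95% interval -0.88 to -0.06), with an unadjusted p of 0.0279 and an edgeR adjusted p of 0.630. In the authors' FPKM the limma adjusted p was 0.321, the smallest of any member under any setting tried. The unadjusted edgeR p ran from 0.0413 to 0.0730 without single libraries. Of all 18 homeostatic members, 12 had positive log2 changes, and the median over the 18 was 0.06.

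P2ry12, the ADP receptor that guides microglial processes, could not be compared closely because it varied within both groups. The gene lies on the minus strand of chromosome 3 at 59216272 to 59262871. It had 49.3, 50.8 and 26.5 CPM in LPS and 49.0, 19.9 and 46.9 CPM in saline samples. LPS 3 and Saline 2 were low, and the other 4 libraries lay within 46.9 to 50.8 CPM. The log2 change was 0.13 with an SE of 0.475 and a 95% interval of -1.15 to 1.41. Its within-group standard deviation, 0.638 on the log2 CPM scale, was reached by 2.50% of all rows, while the median was 0.118 over the members and 0.119 over all rows.

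Genes beside P2ry12 in the genome showed no drop of its size in LPS 3 and Saline 2. Its exons share 9 bases with Med12l, a mediator subunit gene on the opposite strand, which had 46.7, 52.1 and 44.7 CPM in LPS and 46.0, 48.3 and 44.7 CPM in saline samples. P2ry13, at 59207892 to 59210882 on the same strand, kept to 15.28 to 15.98 CPM outside LPS 2. Within each group it was lowest in the library where P2ry12 was low, by a small margin. P2ry14, a further neighbour, had 3.77, 2.92 and 3.89 CPM in LPS and 3.72, 3.35 and 2.52 CPM in saline samples. Among the 621 rows with a within-group standard deviation of at least 0.5, the 3 whose deviations from the group means were most like those of P2ry12 over the 6 libraries were Tgfbrap1 (r = 0.998), Myo1h (r = 0.993) and Ccl9 (r = 0.985). Tgfbrap1, an adaptor of vesicle tethering, had 70.7, 73.8 and 37.9 CPM in LPS and 77.4, 34.7 and 76.4 CPM in saline samples, low in the same libraries. These 3 genes were chosen after their values were seen, and correlations over 6 libraries are high for some rows among so many.

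The authors' FPKM gave the same low libraries, with 32.0, 33.4 and 19.8 FPKM in LPS and 31.2, 16.2 and 31.4 FPKM in saline samples, but a smaller gap. The ratio of FPKM to counts, set relative to Saline 1 and to its library's median, was 22.6% higher in Saline 2 and 14.4% higher in LPS 3, the libraries with low counts. Over all genes, 9.82% of gene and library pairs departed by over 10%. Among the members this held for 12 of 155 pairs, in P2ry12, Siglech, Fcrls, Lpcat2 and Inpp5d. In Fcrls the ratio was 45.7% higher in LPS 2, so its FPKM and CPM values differ in pattern. The part of read assignment in the P2ry12 values was not tested.

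Cx3cr1, the fractalkine receptor gene, is no member but also split by library, at 5.41, 35.3 and 36.1 CPM in LPS and 5.68, 10.5 and 10.9 CPM in saline samples. Its low libraries were LPS 1 and Saline 1, others than those of P2ry12.

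**Figure D3:**
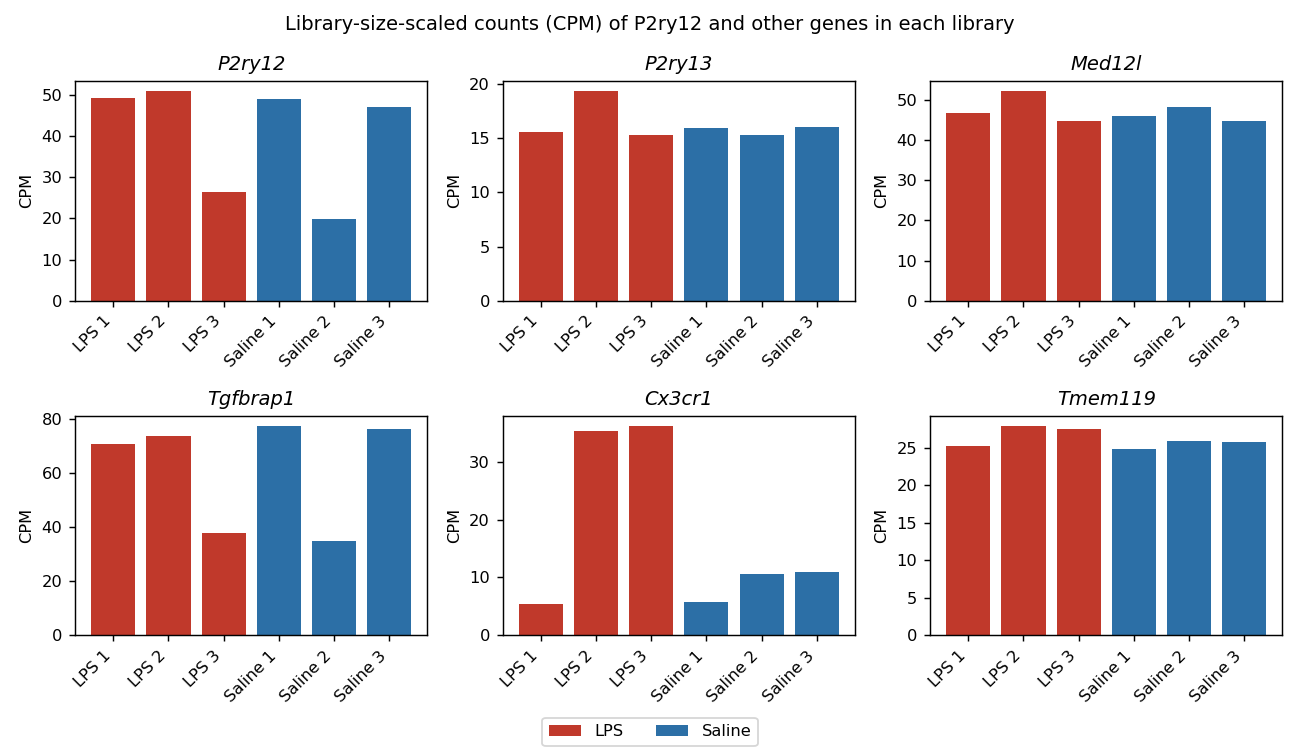
CPM in each of the 3 LPS and 3 saline libraries (y axis) for P2ry12, its neighbours P2ry13 and Med12l, the gene most like it (Tgfbrap1), Cx3cr1 and Tmem119, with 1 bar per library. P2ry12 and Tgfbrap1 are low in LPS 3 and Saline 2, Cx3cr1 is high in LPS 2 and LPS 3, and the other genes vary less.

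Of the 9 lysosomal genes 0 were called, 4 had positive and 5 negative log2 changes, and the median was -0.03. Only Cst3 had an unadjusted p under 0.05. Of the digestive enzymes, Ctsd, the aspartic protease cathepsin D, had 306, 302 and 314 CPM in LPS and 288, 297 and 298 CPM in saline samples. Every LPS sample was above every saline sample in CPM, with a log2 change of 0.06 (SE 0.0504, 95% interval -0.05 to 0.18, edgeR adjusted p = 0.822). In FPKM the groups overlapped, at 134, 127 and 135 in LPS and 121, 130 and 131 in saline samples. The exons of Ctsd overlap those of Gm49369 on the same strand over 34.4% of their length, and Gm49369 is no row of the table. The cysteine cathepsins had log2 changes of -0.06 for Ctsb (SE 0.0565), -0.03 for Ctss (SE 0.0751) and -0.04 for Ctsz (SE 0.0744). Lgmn, the asparagine-specific protease legumain, was at -0.04 (SE 0.0593). Ctsb shares 12.8% of its exon length with Fdft1 on the opposite strand (log2 -0.15, SE 0.0741, edgeR adjusted p = 0.729), and Ctsz shares 10 bases with Nelfcd (log2 -0.02, SE 0.0824).

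Cst3, which codes for the cystatin that blocks these cysteine proteases, was lower in every LPS sample. It had 541, 569 and 568 CPM in LPS and 595, 645 and 618 CPM in saline samples. The log2 change was -0.15 (SE 0.0544, 95% interval -0.27 to -0.03), with an unadjusted p of 0.0227 and an edgeR adjusted p of 0.588. Leaving out single libraries gave log2 changes of -0.18 to -0.12, with edgeR unadjusted p from 0.0194 to 0.0984. Astrocytes and neurons also make Cst3. Of 7 astrocyte markers, all measured and none at 0, edgeR called 0 (6 of them had 2060 to 2310 CPM summed in LPS and 2186 to 2224 CPM in saline samples). The seventh, Slc1a2, varied from 752 to 3755 CPM in LPS and from 866 to 3365 CPM in saline samples. The part of astrocytes in the Cst3 values was not tested.

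Membrane proteins of the lysosome had positive log2 changes that did not pass. Cd68, the macrophage glycoprotein macrosialin on chromosome 11 at 69664213 to 69666153, had 8.08, 10.5 and 11.3 CPM in LPS and 9.66, 9.94 and 8.15 CPM in saline samples. LPS 1 was the lowest and LPS 3 the highest of the 6, and the log2 change was 0.11 (SE 0.146). Cd63, a tetraspanin of late endosomes, had 30.6, 32.2 and 36.2 CPM in LPS and 25.7, 29.7 and 30.7 CPM in saline samples (log2 0.20, SE 0.0946, edgeR adjusted p = 0.710). LPS 1 and Saline 3 were level, and the other LPS samples lay above all saline samples. Laptm5, a lysosomal membrane protein gene of blood-derived cell lineages, was at 0.13 (SE 0.0736).

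The 4 genes linked to activation were split between Apoe and the rest. Apoe, on chromosome 7 at 19696109 to 19699188, had 1172, 1266 and 1461 CPM in LPS and 1229, 1795 and 1333 CPM in saline samples. Saline 2 held the highest level, and without it the log2 change of -0.16 (SE 0.166) became 0.02. The others were at 0.18 for Cd9 (SE 0.0966), a tetraspanin that oligodendrocytes also carry, 0.18 for Fcer1g (SE 0.118), the signalling chain of Fc receptors, and 0.19 for Fcgr3 (SE 0.131), an IgG receptor. Fcgr3 had 11.5, 15.1 and 16.1 CPM in LPS and 13.2, 11.8 and 12.4 CPM in saline samples. The antisense transcript Gm26728, no row of the table, overlaps 10.7% of the exon length of Cd9. In each of these 3 genes LPS 2 and LPS 3 lay above every saline sample and LPS 1 did not. The edgeR adjusted p of the 3 ran from 0.755 to 0.803. Oligodendrocyte markers, 7 of 7 measured and none at 0, had 1898, 2619 and 2087 CPM summed in LPS and 1886, 2334 and 2418 CPM in saline samples, and their part in Cd9 was not tested.

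The LPS mice differed among themselves, which the group averages do not show. The saline samples were not set against the LPS samples in the same way, and genes that vary together count here as separate members. In LPS 1, 16 of the 31 members lay below every saline sample and 3 above, where 26.1% and 26.3% of all rows did so. In LPS 2, 4 lay below and 18 above, where 27.4% and 28.5% of all rows did so. In LPS 3, 7 lay below and 13 above, where 27.0% and 27.1% of all rows did so. LPS 1 thus held low values and LPS 2 high values across roles: 8 of 18 homeostatic and 6 of 9 lysosomal members were below all saline samples in LPS 1, and 10 of 18 and 5 of 9 were above all of them in LPS 2. The mean level of the activation group, as log2 CPM relative to each gene's mean over the 6 libraries, was -0.16, 0.13 and 0.17 in LPS and -0.08, -0.01 and -0.05 in saline samples. That of the lysosomal group was -0.08, 0.04 and 0.07 in LPS and -0.00, -0.00 and -0.02 in saline samples. For the homeostatic group it was -0.05, 0.11 and -0.02 in LPS and 0.04, -0.09 and 0.02 in saline samples. There Saline 2 was the lowest library, which rested on P2ry12. Without P2ry12 the homeostatic means were -0.078, 0.090 and 0.0055 in LPS and 0.021, -0.042 and 0.0045 in saline samples. LPS 1 was then the lowest library and LPS 2 the highest.

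**Figure D4:**
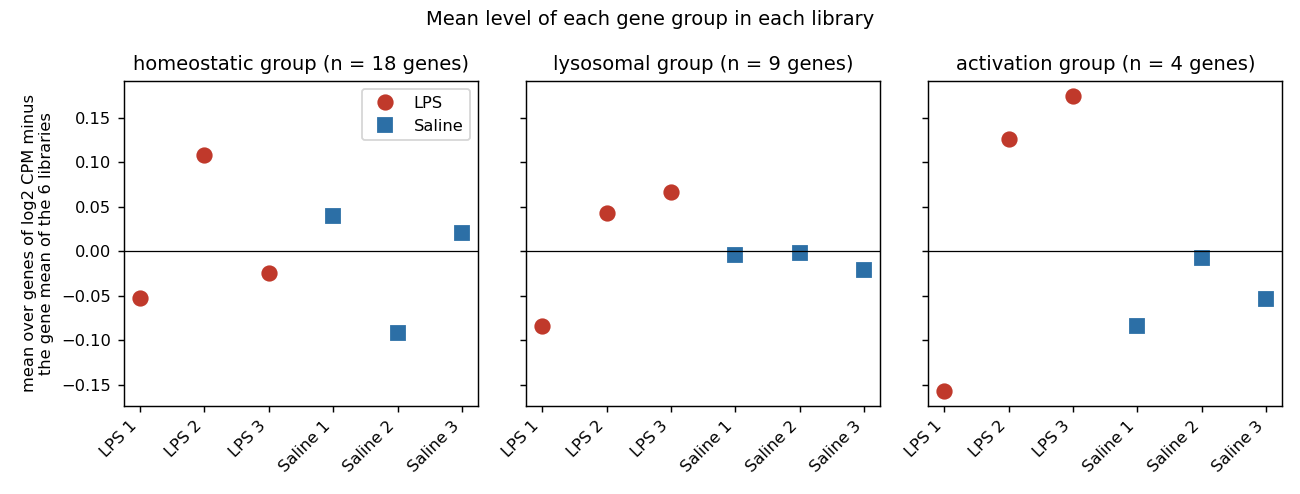
Mean over the genes of each group of log2 CPM minus the gene's mean over the 6 libraries (y axis), for the 3 LPS (circles) and 3 saline (squares) libraries. In the lysosomal and activation groups LPS 1 is the lowest library and LPS 2 and LPS 3 are the highest, and the saline libraries lie between them.

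Without LPS 1, edgeR gave 6 members at an unadjusted p under 0.05, a level that 7.34% of all rows reached. They were Cd9 (log2 0.27), Fcgr3 (0.32), Fcer1g (0.28), Cd63 (0.25) and Laptm5 (0.18), which were higher, and Aif1 (-0.52), which was lower. The smallest adjusted p was 0.563, so this fit also called 0 of 31. Leaving out any other single library gave 1 to 3 members at that unadjusted p. LPS 1 was taken up because it had been seen to hold low values, so the higher changes without it are no separate evidence for these genes. Markers of border macrophages and leukocytes, some of which share these genes, had 30.3, 34.5 and 34.0 CPM summed in LPS and 23.2, 32.2 and 28.1 CPM in saline samples. Of the 15 on that list 5 were measured, none at 0 in any library. EdgeR called 0 of them, and Lyve1 alone had an unadjusted p under 0.05 (log2 0.99, SE 0.381, edgeR adjusted p = 0.630). Meningeal markers, 6 of 6 measured, had 114 to 191 CPM summed in LPS and 93.1 to 173 CPM in saline samples, lowest in LPS 1 and Saline 1 of their groups. The part of these cells, or of the depth of dissection, in the values was not tested.

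The proportion of lysosomal to homeostatic transcripts was compared library by library, without a test. The summed CPM of the lysosomal group was 5.00, 4.54 and 5.36 times that of the homeostatic group in LPS and 5.04, 5.95 and 5.11 times in saline samples. The ratio was largest in Saline 2 and smallest in LPS 2. Of the lysosomal sums, Cst3 alone held 541 to 569 of 1590 to 1677 CPM in LPS samples. In saline samples it held 595 to 645 of 1680 to 1717 CPM. Without Cst3 the lysosomal sums were 1049, 1058 and 1109 CPM in LPS and 1087, 1072 and 1062 CPM in saline samples, and they overlapped. The part of cells other than microglia in the ratio was not tested. On the log2 scale and without P2ry12, the lysosomal minus the homeostatic mean was -0.01, -0.05 and 0.06 in LPS and -0.02, 0.04 and -0.03 in saline samples. The groups overlapped in both measures.

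Other genes of the same pathways were counted in 3 further lists. Of 45 other lysosomal genes 43 were measured, with a median log2 change of 0.00, and edgeR, DESeq2 and limma-voom called 0. At an unadjusted p under 0.05 stood only Glb1, lysosomal beta-galactosidase, with 17.7, 16.4 and 16.8 CPM in LPS and 21.4, 21.1 and 20.9 CPM in saline samples (log2 -0.32, SE 0.0782, edgeR adjusted p = 0.289). Every LPS sample of Glb1 was below every saline sample. Of 28 measured genes among 30 other microglial ones, edgeR and limma-voom called 0. The median was 0.05, with 25 positive and 3 negative log2 changes, beside 7186 positive and 7064 negative over all rows. An edgeR unadjusted p under 0.05 was found for 3 of the 28, all higher. Of all 14250 rows, 517 were higher at that p, and 7.17% reached it in either direction. In 4 of the 28 every LPS sample was above every saline sample, where 6.84% of all rows did so, and in 0 every one was below. Both shares of higher genes lay above those of all rows, and the list was not tested as a set. The smallest p were those of Sparc, a matrix protein gene that endothelial cells and astrocytes also express, at 216 ± 7.28 CPM in LPS and 181 ± 7.24 CPM in saline samples (SD, n = 3 each; log2 0.25, SE 0.0566, edgeR adjusted p = 0.207), and Tgfbr1, a TGF-beta receptor gene (log2 0.26, SE 0.0682, edgeR adjusted p = 0.353). DESeq2 called Sparc alone of the 28 (adjusted p = 0.0302). Of 16 measured genes among 22 of the disease-associated microglial state, edgeR called 0 and 0 had an unadjusted p under 0.05, with a median of 0.01. DESeq2 and limma-voom also called 0 of the 16. Timp2 (log2 0.13) and Fth1 (log2 -0.10) had the smallest p among them.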

How the data were processed

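Each of the 6 libraries had a column of raw counts and a column of FPKM in the table the authors deposited. The submitters' processing notes name TopHat2 2.1, DESeq 1.10.1 and GRCm38, with roles, counting program and annotation not given in the sources used here. Positions and exon overlaps came from GENCODE M21 (GRCm38).

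Counts were tested with edgeR 4.0.16 in R 4.3.3 (quasi-likelihood, robust, TMM factors, treatment as the only term, all 6 libraries), adjusted by Benjamini-Hochberg over 14250 rows with a two-sided threshold of 0.05. The filter filterByExpr removed 0 rows. CPM values used TMM factors, and relative levels were log2 CPM with a prior count of 2. DESeq2 1.42.0, limma 3.58.1 (voom, and FPKM as log2(FPKM + 1)) and other settings were alternatives.

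The members, their groups and the other lists were chosen with earlier results of these data known, so no list was tested as a set. All members are reported. A member is given sample by sample where its groups did not overlap, where its unadjusted p was under 0.05, where a group ranged over 2-fold, or where it is Tmem119, Cd68 or Apoe; P2ry13, Siglech, Sall1, Cd63, Fcgr3 and the genes beside P2ry12 were added after their values were seen. From each other list up to 2 genes are named.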

Additional observations from a re-analysis of the deposited data

How the results depend on the processing

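None of the 31 members was called under any of the 16 alternative fits, by edgeR, DESeq2 or limma, or at a threshold of 0.1. Among the 16, the fit without the low-count filter repeats the main fit, because the filter removed 0 rows. The smallest adjusted p was 0.321, for Aif1 with limma on log2(FPKM + 1). With 3 mice per group, true changes could be missed, also those of 1.5-fold or more in members with wide intervals such as P2ry12 and Aif1. With the replicate number as a block, which the labels do not tie to a litter or day, edgeR called 10 genes higher and 21 lower of all rows and 0 members. Same-numbered libraries had correlations of -0.03, 0.03 and 0.05 in their deviations, and differently numbered ones of -0.0878 to 0.0534. With 3 libraries per group these correlations cannot decide whether the numbers pair the samples. Over all genes, those higher and lower were 60 and 80 with DESeq2, which also called 1 other microglial gene, those higher were 23 at a threshold of 0.1, and those higher were 8 with either FPKM pseudocount. Leaving out 1 library gave 14 to 20 genes higher and 22 to 35 lower. The median of the lysosomal group was 0.0635 without members that overlap another tested gene and ran from -0.0415 to 0.0432 without single libraries, positive without LPS 1. That of the homeostatic group ran from -0.0274 to 0.0996, negative without LPS 2, and that of the activation group from 0.11 to 0.27. Medians without P2ry12, a setting added after seeing the data, moved by less than the spread between libraries. Signs turned in 9 members, none of them called. Selplg was at -0.0042 and -0.0045 with FPKM pseudocounts of 1 and 0.1, and Siglech at 0.0027 with library totals alone. Without single libraries, log2 changes ran from -0.18 to 0.38 for P2ry12, -0.0295 to 0.146 for P2ry13, -0.10 to 0.14 for Gpr34, -0.13 to 0.17 for Siglech, -0.0789 to 0.112 for Selplg, -0.03 to 0.16 for Sall1, -0.0184 to 0.0966 for Olfml3, -0.0759 to 0.0432 for Ctss and -0.267 to 0.0209 for Apoe. Apart from the looser threshold and smaller samples, the cause was not tested.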
